A study of Nothobranchius furzeri with 6 samples.

Results

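Proteins that carry the immunoglobulin-fold pattern D-[ST]-[AG]-x-Y-[YFLTIKVRHQSE]-C, written in one-letter amino acid code with alternatives in brackets and x for any residue, were examined in ribosome profiling data of killifish liver. The members were all proteins of 100 to 700 residues, translated from the deposited codon column, that held the pattern at least once. This gave 105 members among 22757 transcripts, of which 17091 encoded proteins of 100 to 700 residues. The rule itself uses no measured value, although it was chosen with earlier results of these data known. Ribosome profiling sequences the mRNA fragments, called footprints, that translating ribosomes protect from nuclease. The animal was the turquoise killifish Nothobranchius furzeri, whose lifespan of months has made it a model of vertebrate aging. Livers were sampled at 3 ages with 2 libraries each: young at 5 weeks post-hatching (wph), adult at 12 wph and old at 39 wph. The labels name no treatment or genetic change for any group, and the strain given in the methods is MZM-0410. Each library was made from the pooled livers of several fish of both sexes, and differences between replicates are therefore differences between pools, not between fish.

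The immunoglobulin fold is a sandwich of β-sheets held together by a disulfide bond, and the V type (variable) is the form found at the antigen-binding end of antibodies and T cell receptors. The pattern lies around the cysteine of the F strand, which forms the disulfide bond, and its tyrosine belongs to the motif known as the tyrosine corner. The same fold and much the same pattern occur in cell adhesion molecules, in activating and inhibitory receptors of leukocytes, in receptors that carry immunoglobulins across epithelia and in secreted proteins of the extracellular matrix. In the liver, transcripts of this kind can come from resident macrophages, lymphocytes, endothelium or hepatocytes. The transcript identifiers come without gene names and 0 of them matched the gene table at hand, so the members are described by the number of residues of the protein and by features that a script found in its sequence. For the same reason the liver label and the cell types in it could not be checked against named marker genes.

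Several features that the rule did not use were common among the members. A stretch hydrophobic enough to span a membrane, taken as 19 residues with a mean Kyte-Doolittle hydropathy over 1.6 outside the first 30 residues, was present in 73 of 105 members (69.5%), compared with 26.4% of the other proteins of 100 to 700 residues. A hydrophobic stretch within the first 30 residues, where signal peptides for secretion lie, was present in 68 members (64.8%, compared with 19.5%). Both stretches occurred in 47 members and neither in 11. The features typical of antigen receptors were rare. The J-type pattern [FW]-G-x-G-T that joining segments encode followed the V-type pattern within 40 residues in 1 member of 198 residues. Only 26 of 105 members had tyrosine or phenylalanine directly before the cysteine in any of their patterns. An activating motif (ITAM, the paired tyrosines that recruit kinases in immune receptors) was found in 1 member and a single inhibitory motif (ITIM, which recruits phosphatases) or more in the tail of 7. No annotation was at hand to tell true V-type domains from related domains of the same fold, or from proteins of another fold that hold the pattern. The members are therefore pattern proteins and not a verified domain family.

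The DNA around the pattern is shown for members on which the results below turn, as deposited, 5′ to 3′, with the 7 codons of the pattern in capitals. The first pair encodes the members with the most footprints, the next 3 those that were higher in old liver, then 2 that were lower, then a pair of alike proteins of which 1 was higher, and last 2 short proteins that end soon after the pattern.
densest, 380 residues: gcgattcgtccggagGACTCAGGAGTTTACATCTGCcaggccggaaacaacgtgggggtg
next densest, 594 residues: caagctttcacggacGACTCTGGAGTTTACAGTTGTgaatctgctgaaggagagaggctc
Nfu_t_1_016326, 498 residues: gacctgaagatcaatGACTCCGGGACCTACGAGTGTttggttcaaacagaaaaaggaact
Nfu_t_1_001361, 308 residues: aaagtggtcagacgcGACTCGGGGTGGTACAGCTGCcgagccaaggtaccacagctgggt
342 residues, with ITIM: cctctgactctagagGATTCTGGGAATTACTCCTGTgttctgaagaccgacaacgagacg
Nfu_t_1_013764, 564 residues: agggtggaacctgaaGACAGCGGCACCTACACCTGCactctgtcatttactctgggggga
Nfu_t_1_037859, 503 residues: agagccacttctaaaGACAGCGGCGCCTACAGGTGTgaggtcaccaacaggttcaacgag
417 residues: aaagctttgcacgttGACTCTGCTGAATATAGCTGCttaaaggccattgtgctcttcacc
411 residues: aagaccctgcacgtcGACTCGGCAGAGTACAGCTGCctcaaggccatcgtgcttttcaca
115 residues: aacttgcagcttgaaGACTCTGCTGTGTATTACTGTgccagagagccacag
121 residues: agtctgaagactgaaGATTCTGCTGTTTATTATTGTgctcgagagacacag

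In the first pattern of each of the 105 members, serine stood at the second position in 85 and threonine in 20, and glycine stood at the third position in 79 and alanine in 26. The free position after it held valine in 31 members, threonine in 22 and glutamate in 11. Tyrosine and threonine were the commonest residues before the cysteine, with 18 members each, followed by arginine with 14. The aspartate was encoded by GAC in 86 of 105 patterns (81.9%), compared with 59.6% of all aspartate codons in the coding sequences, whereas the codons of the tyrosine (TAC in 66.7%, compared with 68.4%) and of the cysteine (TGC in 50.5%, compared with 49.6%) were used much as elsewhere. Both short proteins shown have alanine at the third position and tyrosine before the cysteine, and they end 5 residues after it. In total, 13 members of fewer than 200 residues had the pattern within 40 residues of their end.

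Reads with more than 1 best location were discarded by the authors, so the unique part of each coding sequence was measured first. Exact 30-nucleotide windows found once among all deposited sequences made up over 99% of the coding sequence in 92 of 105 members (87.6%, compared with 87.7% of the other proteins of 100 to 700 residues), and the lowest value was 73.3%. The short proteins were among the least unique: the member of 115 residues had 24 codons in shared windows with 0 footprints, and 0.275 footprints per codon over its other 91 codons. The largest shared stretch was found in the fifth densest member, a protein of 498 residues with a membrane-spanning stretch. Its codons 12 to 113 lay in windows shared with 1 transcript outside the members. The first 143 codons of this member held 0 footprints, including 41 codons that were not shared, and the first footprint lay on codon 144. From there on, the mean was 27.4 footprints per codon over 355 codons. Its level is therefore that of the later part of the coding sequence, and whether unique alignment accounts for the empty codons was not tested. Of the 32 members with a mean of at least 1 CPM, only this one had an empty start of that length, and in the next longest the first footprint lay on codon 45 of 572.

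**Figure D1:**
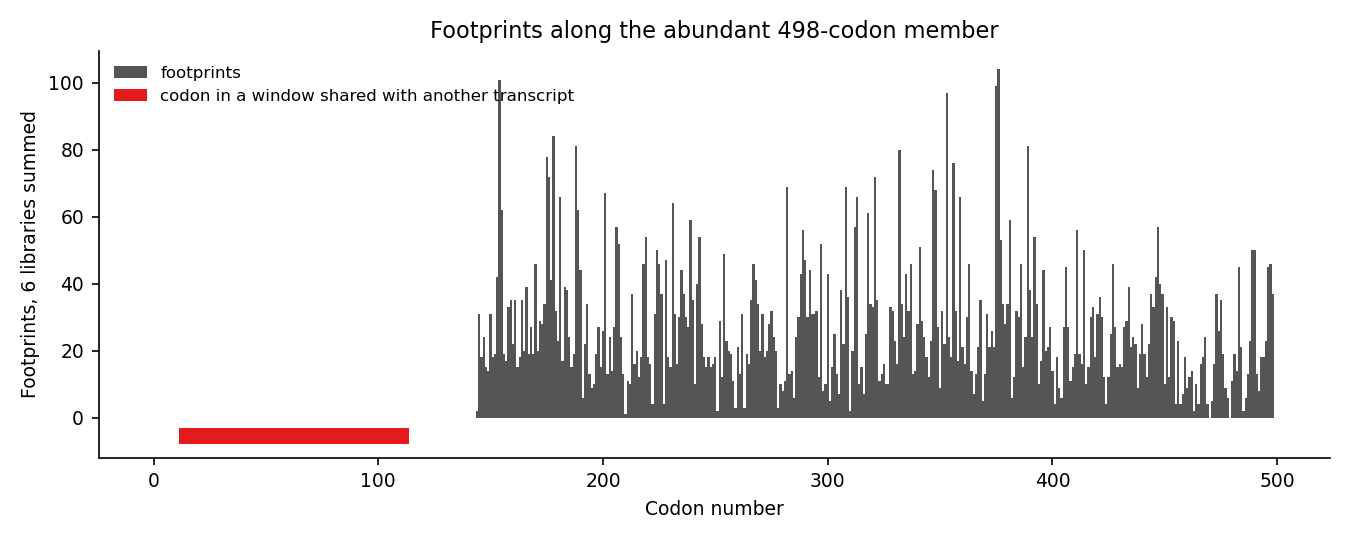
Footprints of all 6 libraries summed (vertical axis) at each codon (horizontal axis) of the abundant member of 498 residues, with the codons in windows shared with another transcript in red. The shared codons 12 to 113 and the codons on either side of them up to codon 143 hold 0 footprints, and the profile starts at codon 144.

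Across the members, levels spanned several orders of magnitude. Levels are given as CPM, footprints on a coding sequence per 1000000 footprints of the library after scaling by TMM factors, and comparisons between members as CPM per 100 codons. Of the 105 members, 100 had at least 1 footprint, 61 had enough footprints to be tested and 44 had not. The untested members held at most 54 footprints each over all libraries. A pair of members stood far above the rest: the member of 380 residues at 548 and the member of 594 residues at 390.0 CPM per 100 codons. The other members reached at most 17.7, and the median of the 61 tested members was 0.315. Both have a hydrophobic stretch within the first 30 residues and no membrane-spanning stretch. The next 5 members were proteins of 295, 564, 498, 651 and 382 residues with 17.7, 11.4, 9.40, 6.44 and 4.79 CPM per 100 codons, and all 5 had a membrane-spanning stretch. The value for the member of 498 residues counts all its codons, including the first 143 without footprints. Its rank among the 5 depends on that. Level here means ribosome occupancy in the tissue as a whole, from mRNA amount and translation together.

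**Figure D2:**
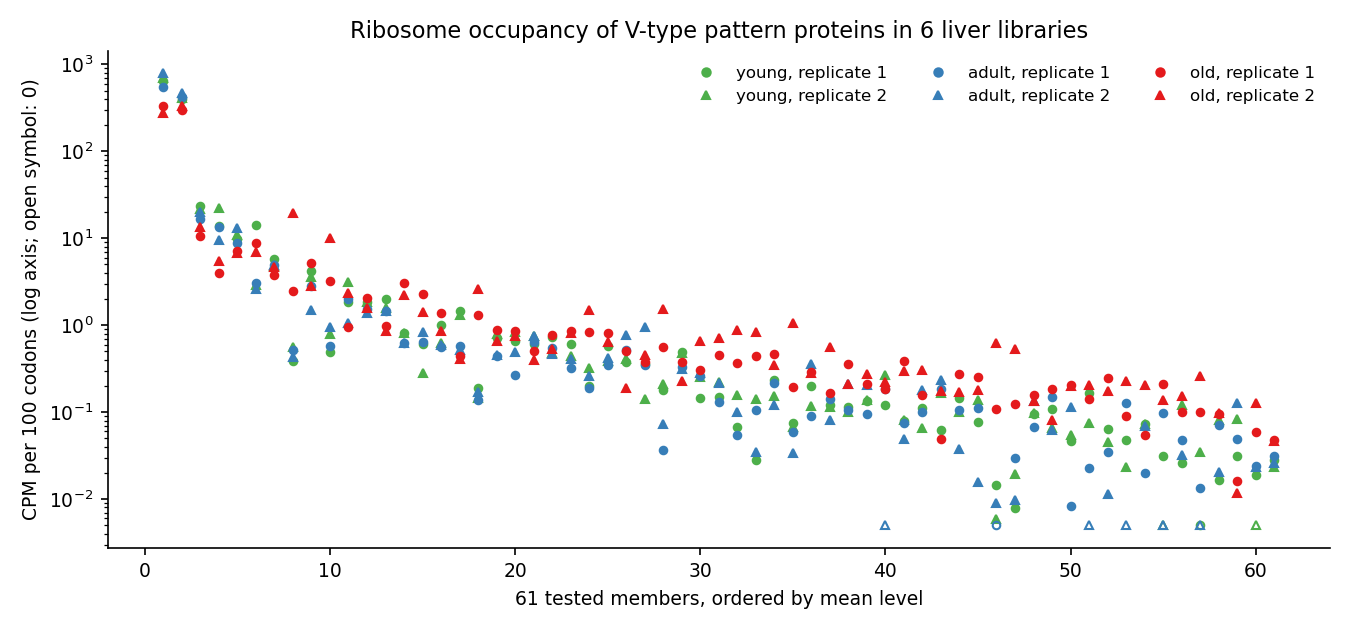
CPM per 100 codons (vertical log axis) of the 61 tested members, ordered by mean level (horizontal axis), with one symbol per library coloured by age and open symbols for 0. The members of 380 and 594 residues lie far above the rest, at means of 548 and 390.0, while the next member has a mean of 17.7.

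Taken as a percentage of all footprints of a library, the members as a whole held a small and similar share at all ages. In young liver the share was 0.392% and 0.50% in the 2 libraries (mean 0.446% ± 0.0764, SD, n = 2). In adult liver it was 0.540% and 0.356% (0.448% ± 0.130) and in old liver 0.455% and 0.562% (0.508% ± 0.0761). The differences between ages were smaller than the spread within an age. The pair of densest members accounted for most of it, with a mean share of 0.415% (young), 0.424% (adult) and 0.456% (old). The other 103 members together held 0.0317% ± 0.00299 in young, 0.0238% ± 0.0101 in adult and 0.0526% ± 0.0172 in old liver, and both old libraries (0.0404% and 0.0648%) were above both young ones (0.0296% and 0.0338%). On the CPM scale this order was not seen: the 103 members summed to 397 and 371 (young), 277 and 284 (adult), and 297 and 391 (old). The same 10 transcripts, those with the most footprints summed over all 6 libraries, were taken in each library. They held 54.4% ± 8.69 (young), 51.2% ± 15.7 (adult) and 32.8% ± 10.7 (old) of all footprints, so that shares of the total and TMM-scaled values differ between ages. With these 10 left out of the total, the members' mean share came to 0.981% (young), 0.924% (adult) and 0.757% (old), which is the opposite order. Both old libraries (0.763% and 0.752%) were then below the young (0.994% and 0.967%) and adult ones (0.902% and 0.945%). All 105 members summed to 5264 and 5489 CPM (young), 4842 and 6077 (adult), and 3342 and 3397 (old). Here too both old libraries were below all others, and the densest pair made up most of these sums.

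Levels were then compared between ages with edgeR in 1 fit of all transcripts and all 6 libraries. In a whole tissue, a change in the number of cells of a type and a change in translation per cell cannot be told apart. Between old and young, 15 of the 61 tested members passed the adjusted p of 0.05, 11 higher and 4 lower in old. The background over all 15557 transcripts tested was 6.56% higher and 5.01% lower. As a description, the members that passed the filter on low counts had a median log2 fold change of 0.82. Over all transcripts tested the median was 0.07. A positive value was found in 45 of the 61 members and in 8363 of the 15557 transcripts. These background values cover transcripts of all levels and were not matched to the level of the members. They therefore do not show whether the positive values are particular to the members. Without an adjustment, 28 members had a p under 0.05, beside 4851 of all 15557 transcripts tested. Filtering does not treat both directions alike: in 11 tested members only the old libraries reached 10 footprints, so these were tested only through the age at which they were high. The members of 498 and 456 residues called higher were 2 of these. That of 183 residues, also called higher, held 9, 13, 3 and 3 footprints in the young and adult libraries. It too needed its old libraries to pass the filter. So did members that were not called, such as that of 449 residues (9, 11, 4 and 7). The count of 11 is therefore a lower limit. Over the 100 members with a footprint, filtered or not, both old libraries were above both young ones in 44 (30.1% of all transcripts with a footprint) and below both in 14 (24.3%).

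The calls rested on few libraries. Without young replicate 1, and likewise without young replicate 2, 0 members were called by edgeR, although all 15 kept their direction and had an unadjusted p under 0.05. The lone young library is then assumed to vary like the other ages. Without old replicate 2, 7 members were called, 5 higher and 2 lower, and without old replicate 1, 14, of which 13 were higher. Without adult replicate 2 the count was 10. Scaling by plain library totals moved the median log2 fold change of all transcripts to 0.93, and on that scale 26 members were called higher and 0 lower, which included the same 11 higher members and none of the 4 lower ones. DESeq2 called 14 higher and 5 lower, with all 15 among them. The share called over all transcripts is given for the main fit only. These counts therefore show which calls were kept, not how the members compare with a background.

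**Figure D3:**
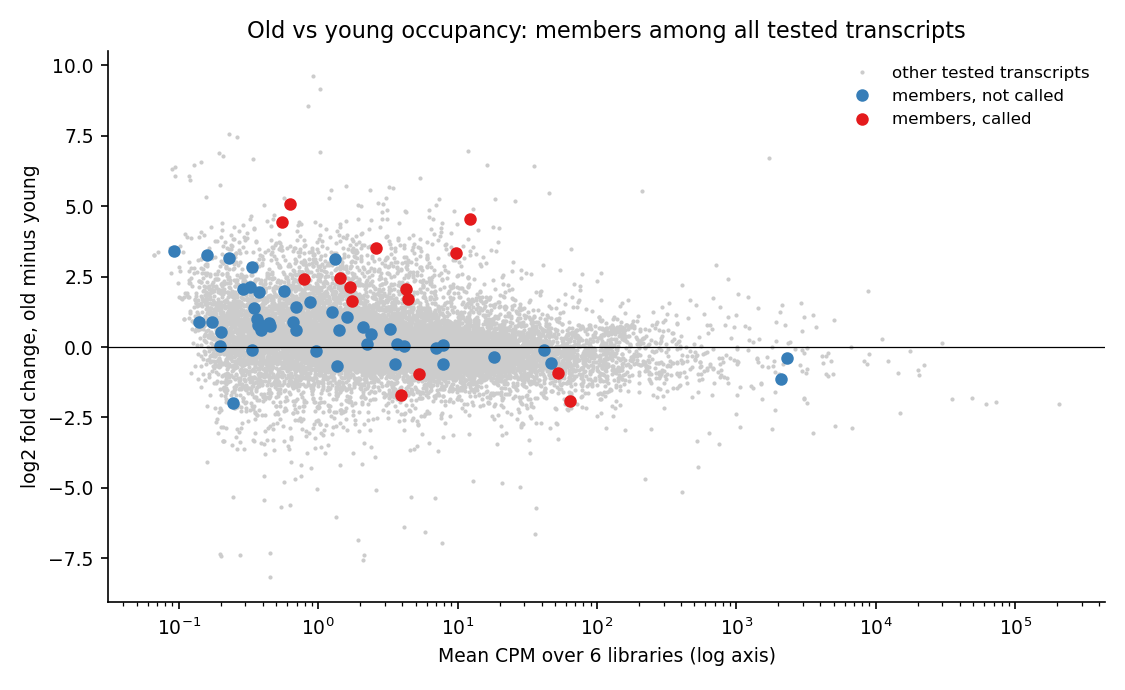
Log2 fold change between old and young (vertical axis) against mean CPM over 6 libraries (horizontal log axis) for all 15557 transcripts tested, with the members in colour. The 11 members called higher lie at log2 fold changes of 1.65 to 5.09, and the 4 called lower at -0.92 to -1.92.

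The largest fitted difference among the members called was that of Nfu_t_1_016326, a protein of 498 residues with both hydrophobic stretches, and it had almost no footprints before old age. Its level was 0.0722 and 0.0296 CPM (young), 0 and 0.0447 (adult), and 0.546 and 3.08 (old). This corresponds to 3 young, 1 adult and 144 old footprints. The ratio of old to young was 32.6, with a 95% counting interval of 10.9 to 160.0, and that of old to adult was 106 (18.7 to 4218). The fitted log2 fold change between old and young was 5.09 ± 1.16 (SE, n = 2 per age, edgeR adjusted p = 0.0375), and it depends on the prior count of the fit at so few footprints. Because this member passed the filter only through its old libraries, the test is no independent support for its direction. The value was 3.33 without old replicate 2 (adjusted p = 0.116).

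A similar pattern at low level was seen in a protein of 456 residues that had 2 V-type patterns, a constant-type signature and an N-terminal hydrophobic stretch. It had 0.0361 and 0.0888 CPM (young), 0.136 and 0.0447 (adult), and 0.565 and 2.43 (old), that is, 4, 7 and 121 footprints. The ratio of old to young was 20.6 (7.83 to 76.7, counting error only), with an edgeR adjusted p of 0.0347. This member too passed the filter only through its old libraries, so the p is no independent support. Without old replicate 2 the log2 fold change went from 4.45 to 3.01 (adjusted p = 0.105). The constant-type signature is the cysteine motif of antibody constant regions and of major histocompatibility complex proteins, and no other member carried it.

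Higher up, Nfu_t_1_001361, a protein of 308 residues with an N-terminal hydrophobic stretch and the pattern close to its end, was among the 10 densest members through its old libraries. Its level was 1.19 and 1.72 CPM in young and 1.6 and 1.34 in adult liver. In old liver it was 7.67 in replicate 1 and 60.3 in replicate 2, so both old libraries exceeded the other 4 but differed from each other by 7.86 times. The log2 fold change between old and young was 4.53 ± 0.91 (adjusted p = 0.0295), and without old replicate 2 it was 2.33 (adjusted p = 0.029). The protein of 364 residues showed the same order: 1.77 and 2.90 CPM (young), 2.10 and 3.49 (adult), and 11.7 and 36.3 (old), a log2 fold change of 3.35 ± 0.59 (adjusted p = 0.0230). Without old replicate 2 the value was 2.26 (adjusted p = 0.0368). This protein has a membrane-spanning stretch with a tail of 67 residues.

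In mammals, receptors with an ITIM restrain the activating receptors of leukocytes. Of the 7 members with an ITIM in the tail, 3 were tested, and 2 of these were higher in old liver. Over all transcripts tested, 6.56% were higher and 5.01% lower. With so few tested, and described after their values were seen, they allow no statement about ITIM proteins as a group. The protein of 342 residues had 0.650 and 0.503 CPM (young), 0.475 and 0.581 (adult), and 4.43 and 8.86 (old). Its log2 fold change of 3.52 ± 0.43 had the smallest adjusted p among the members (0.0139). The protein of 533 residues, which carries 3 V-type patterns, had 0.361 and 0.829 CPM (young), 0.294 and 0.537 (adult), and 1.98 and 4.68 (old) (log2 fold change 2.45 ± 0.59, adjusted p = 0.0420). The remaining one, of 444 residues, had a log2 fold change of 1.61 that did not pass (adjusted p = 0.138). The only member with an ITAM, a protein of 216 residues, was not called.

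The other 5 members called higher had log2 fold changes of 1.65 to 2.40 and adjusted p of 0.0168 to 0.0449. They were proteins of 183, 307, 417, 324 and 553 residues. That of 183 residues passed the filter on low counts only with its old libraries, so its p is no independent support for its direction. The protein of 183 residues, with both hydrophobic stretches, had 0.325 and 0.385 CPM (young), 0.0678 and 0.134 (adult), and 1.04 and 2.78 (old), and it lost its call without old replicate 2 (log2 fold change 1.48, adjusted p = 0.176). The protein of 324 residues had 2.64 and 2.66 CPM (young), 2.03 and 2.01 (adult), and 10.0 and 7.20 (old). The protein of 307 residues had 0.614 and 0.977 CPM (young), 0.588 and 0.805 (adult), and 2.54 and 4.6 (old). The protein of 553 residues, with both hydrophobic stretches, had 0.831 and 1.21 CPM (young), 0.723 and 1.21 (adult), and 2.49 and 3.99 (old). In all 11 members called higher, both old libraries were above the 2 young and the 2 adult libraries. These members were called from the same libraries, so the order of old and young describes them and adds no support. Old replicate 2 was above old replicate 1 in 9 of the 11, by factors of 0.614 to 7.86 over all 11, while the median of this factor over all tested transcripts was 1.01. Old replicate 2 also had the fewest footprints, 22580854 compared with 37067419 to 39692061 in the others. The part of this library in the result was not tested beyond leaving it out. Summed over the 11 members, CPM were 11 and 12.5 (young), 10.7 and 13.7 (adult), and 52.6 and 140.1 (old). The 11 were selected as higher in old, so a higher sum in old follows from the selection and is only a description.

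**Figure D4:**
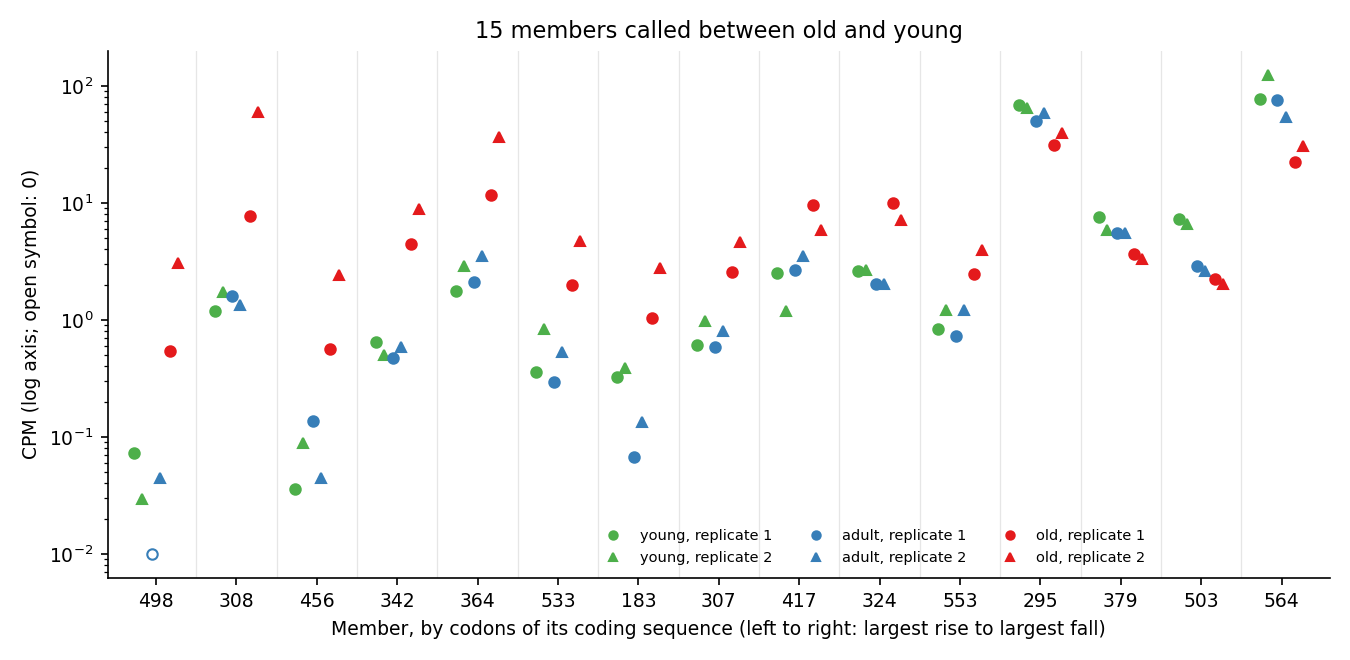
CPM (vertical log axis) in each library of the 15 members called between old and young, named by codons of the coding sequence (horizontal axis), with circles for replicate 1, triangles for replicate 2 and an open symbol for 0. In the 11 members on the left both old libraries lie above all others, and in the 4 on the right both lie below both young libraries. The members shown were selected by their difference between old and young in these same libraries.

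Among the 11 were members of different architecture: 8 had a membrane-spanning stretch and 3 had not. A membrane-spanning stretch was present in all 4 members called lower. Of the tested members with such a stretch, 8 of 46 were higher and 4 lower, and of those without one 3 of 15 were higher and 0 lower, beside 6.56% higher and 5.01% lower over all transcripts tested. The difference between the groups was not tested.

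The members that fell were more abundant than most that rose. Nfu_t_1_013764, a protein of 564 residues with a membrane-spanning stretch and a long tail of 255 residues, had 77.1 and 124.6 CPM (young), 75.9 and 54.2 (adult), and 22.6 and 30.7 (old). Its log2 fold change between old and young was -1.92 ± 0.34 (adjusted p = 0.0236). Nfu_t_1_037859, a protein of 503 residues with both hydrophobic stretches, had 7.33 and 6.60 CPM (young), 2.91 and 2.59 (adult), and 2.24 and 2.03 (old). It was lower in old (-1.70 ± 0.23, adjusted p = 0.0149) and it was the only member called between adult and young (-1.33 ± 0.23, adjusted p = 0.0468). The young libraries of this member did not overlap with the other 4, and the adult ones lay close to the old ones. The proteins of 379 and 295 residues, each with 2 V-type patterns, fell by less, with log2 fold changes of -0.94 (adjusted p = 0.0415) and -0.92 (adjusted p = 0.0484). The protein of 379 residues, whose first pattern starts at residue 10, had 7.51 and 5.92 CPM (young), 5.56 and 5.54 (adult), and 3.67 and 3.29 (old). The protein of 295 residues had 68.5 and 64.9 CPM (young), 49.8 and 58.7 (adult), and 31.2 and 39.5 (old). With plain library totals none of these 4 calls remained, and their log2 fold changes were -0.03 to -1.07.

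Of the densest pair, neither passed the test. The member of 380 residues had 2481 and 2645 CPM (young), 2069 and 3001 (adult), and 1258 and 1046 (old), a log2 fold change between old and young of -1.15 ± 0.33 (adjusted p = 0.0619). Both old libraries were below the other 4. The member of 594 residues had 2386 and 2473 CPM (young), 2497 and 2791 (adult), and 1787 and 1959 (old) (log2 fold change -0.38 ± 0.29, adjusted p = 0.412). The abundant member of 498 residues had 48.4 and 53.9 CPM (young), 43.7 and 65.5 (adult), and 35.9 and 33.3 (old), and the member of 382 residues had 22.1 and 18.3 CPM (young), 18.8 and 18.7 (adult), and 14.3 and 17.7 (old). In both, the old libraries were below the other 4, but neither passed (adjusted p = 0.186 and 0.316), and with plain library totals the log2 fold changes of both (0.29 and 0.55) and of the member of 594 residues (0.49) turned positive. The member of 651 residues had 93.0 and 18.9 CPM in the 2 young libraries, and no direction can be given for it.

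Between adult and young, the protein of 503 residues was the only call, so 0 members were higher and 1 was lower, against a background of 1.17% higher and 0.186% lower. In edgeR, 6 of the 61 tested members had an unadjusted p under 0.05, beside 2316 of all 15557 transcripts tested. DESeq2 also called 1 member. This call did not hold with plain library totals (adjusted p = 0.528), upper-quartile factors (0.0590), internal codons only (0.0544) or without any 1 of the young or adult libraries (0.0975 to 0.372), while its log2 fold change stayed between -1.26 and -1.42. Both adult libraries were above both young ones in 11 of the 100 members with a footprint (21.4% of all transcripts) and below both in 23 (21.8%). Between old and adult, 9 members were higher and 0 lower, against a background of 2.37% higher and 1.45% lower. DESeq2 called 16 higher and 2 lower, with no share over all transcripts given for that setting. Of the 9, 8 were also called higher between old and young, in a comparison that uses the same old libraries, and the ninth was a protein of 394 residues (log2 fold change 3.01 ± 0.63, adjusted p = 0.0496). It held 7, 6, 6 and 1 footprints in the young and adult libraries and 51 and 26 in the old ones, so it was tested only through its old libraries. Its level was 0.253 and 0.178 CPM (young), 0.136 and 0.0447 (adult), and 0.961 and 0.696 (old). The old vs adult calls fell to 0 without any 1 of the young or adult libraries and to 3 without old replicate 2, and there were 12 without old replicate 1.

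Alike members could be followed side by side. Pairs that shared at least 70% of residues over at least 80% of the shorter protein linked 14 members into 5 groups. The largest group held 5 proteins of 296, 386, 411, 417 and 430 residues, all with the residues DSAEYSC at the pattern. In all 5 the pattern ended 100 residues before the end of the protein, and neither hydrophobic stretch was found. Whether these 5 proteins have the immunoglobulin fold was not tested. They count as members by the pattern alone, and this includes the protein of 417 residues, which was called higher. The proteins of 411 and 417 residues were 84.1% identical, and over 99% of the windows of each were unique. Footprints on the protein of 417 residues, relative to those on the protein of 411 residues in the same library, were 0.329 and 0.157 (young), 0.430 and 0.609 (adult), and 1.15 and 0.917 (old). This ratio does not depend on scaling between libraries, and both old values exceeded the other 4. For the protein of 386 residues the same ratio was 0.366 and 0.244 (young), 0.336 and 0.313 (adult), and 0.354 and 0.320 (old), with overlapping ages. The protein of 417 residues was among the 11 called higher (log2 fold change 2.08 ± 0.42, adjusted p = 0.0298). The pair was chosen after its values were seen, so the ratio was not tested. The proteins of 296 and 430 residues had too few footprints to be tested.

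The 13 short members with the pattern near the end have the outline of a separate V region or of a truncated model, and they were rare at all ages. Together they held 18 and 44 footprints (young), 36 and 8 (adult), and 120 and 93 (old), which corresponds to 0.650 and 1.3, 0.813 and 0.358, and 2.26 and 2.49 CPM. In these sums both old libraries were above the other 4. Most of the old footprints came from the members of 115, 127 and 181 residues. These held 13, 30 and 37 footprints in old replicate 1 and 6, 40 and 20 in old replicate 2. Over the rest of the 13 together, young replicate 2 was above both old libraries in CPM, so the order does not hold for the group without these 3. Only 4 of the 13 were tested and 0 were called by edgeR. An unadjusted p under 0.05 between old and young was reached by 3 of them, beside 4851 of all 15557 transcripts tested. These 3 were the members of 115, 127 and 181 residues. In all 3 only old libraries reached 10 footprints, so they were tested through the age at which they were high. The other one, of 121 residues, had 4, 11, 10, 0, 12 and 10 footprints from young to old and a log2 fold change of 0.04. Reads from stretches that are identical in another transcript were dropped, and the part of this in the low counts was not tested.

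Positions on the densest members were resolved to single codons. In the members of 380 and 594 residues, 0 of the 340 and 0 of the 554 internal codons (without the first and last 20) lacked footprints. The profile of footprints along each was alike at all ages. In the member of 380 residues the first 5% of the coding sequence had 2.16 to 2.67 times the mean density, and the next peak, centred at 17.5%, had 1.42 to 1.78 times. In the member of 594 residues the first 5% had 1.48 to 1.74 times. The lowest point, centred at 27.5%, had 0.569 to 0.688 times the mean.

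**Figure D5:**
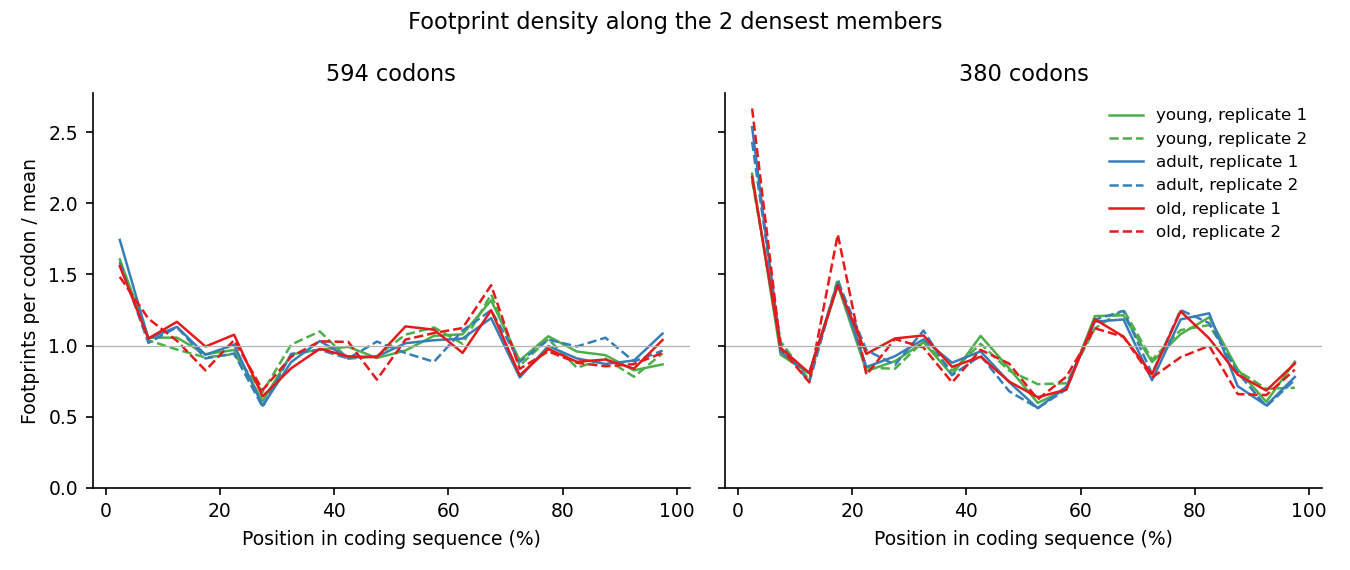
Footprints per codon relative to the mean of the coding sequence (vertical axis) in bins of 5% of the coding sequence (horizontal axis) for the members of 594 and 380 residues, with one line per library, coloured by age, solid for replicate 1 and dashed for replicate 2. The lines of the 6 libraries run together, with a start at 2.16 to 2.67 times the mean in the member of 380 residues and at 1.48 to 1.74 in that of 594.

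The internal codons with the highest pause score, the footprints on a codon divided by the mean of the internal part, were proline and serine codons among others. They are shown with 7 codons on either side, and the codon to which the authors assigned the footprints is in capitals.
380 residues, codon 299: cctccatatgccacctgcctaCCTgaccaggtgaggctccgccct
380 residues, codon 72: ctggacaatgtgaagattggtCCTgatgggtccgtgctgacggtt
594 residues, codon 335: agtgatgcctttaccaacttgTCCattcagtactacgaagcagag
594 residues, codon 402: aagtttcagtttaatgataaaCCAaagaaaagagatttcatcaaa

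Codon 299 of the member of 380 residues had pause scores of 3.94 and 3.92 (young), 4.94 and 6.95 (adult), and 4.87 and 3.63 (old), so the range of the old libraries included both young values. Codon 402 of the member of 594 residues had 6.04 and 6.83 (young), 3.87 and 3.23 (adult), and 3.74 and 4.0 (old), so that both young libraries were above the other 4. Codon 335 had 6.39 and 4.91 (young), 4.11 and 2.98 (adult), and 5.37 and 5.17 (old). Codon 72 of the member of 380 residues went the other way, with 4.2 and 3.24 (young), 4.51 and 4.36 (adult), and 4.28 and 6.73 (old), and both old libraries were above both young ones. The same held for codon 73 of the member of 594 residues, a serine codon with 4.16 and 3.8 (young), 5.11 and 4.55 (adult), and 4.78 and 4.25 (old). Codon 73 of the member of 380 residues had 3.34 and 4.64 (young), 2.5 and 3.71 (adult), and 2.21 and 3.61 (old), with overlapping ages. These codons were chosen by their scores over all libraries, so they were not tested. Density on the pattern itself varied between members. Over the 10 members with at least 0.5 footprints per codon and 64 footprints at each age, the median density on its 7 codons relative to the internal part was 1.04 ± 0.0997 (young), 0.968 ± 0.124 (adult) and 1.06 ± 0.107 (old) (SD, n = 2), and the differences between these medians were within the spread between libraries. Single members went both ways. The member of 651 residues had 1.43 to 1.78 in 5 libraries and 0.505 in adult replicate 2, and the member of 379 residues had 0 to 0.905. The member of 411 residues had 0.293 and 0.505 (young), 1.09 and 1.84 (adult), and 0.935 and 2.93 (old).

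For comparison, other receptor-type proteins were counted by sequence patterns in the same way. Of 58 proteins with a C-type lectin signature, a carbohydrate- or ligand-binding fold of many leukocyte receptors, 33 were tested, and 10 were higher and 1 lower in old than in young. Of 47 proteins with the constant-type signature and no V-type pattern, 40 were tested and 4 were higher and 0 lower. Of 35 proteins with an ITAM and a membrane-spanning stretch, 24 were tested and 3 were higher and 0 lower. The share over all transcripts tested was 6.56% higher and 5.01% lower. These lists were chosen with results of the data known, and differences between them and the members were not tested.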

How the data were processed

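The authors deposited raw counts of footprints, codon by codon, in 1 table per library. The authors cut adapters with cutadapt 1.4.2, removed rRNA reads and used Bowtie 1.3.1 to align the rest to 1 transcript (the longest) for each gene, 22757 in all, and a read with more than 1 best location was dropped. They placed the ribosome with riboWaltz. For this transcript library the genome build is not given in the sources used here. The methods describe the deposited codon as an A-site estimate, but its place on the ribosome is not settled, so it is called the codon to which the authors assigned the footprint.

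Here, footprints were summed over each coding sequence. Libraries held 22580854 to 39692061 footprints. edgeR 4.0.16 (R 4.3.3) fitted age in 1 quasi-likelihood model of all 6 libraries, with TMM factors (0.586 to 1.66) and filterByExpr, and p-values were adjusted after Benjamini-Hochberg over all 15557 transcripts tested. The SE given for a log2 fold change is its absolute value divided by the square root of the F statistic of its test. The script was tested on simulated data. DESeq2 1.42.0, other scalings, filters, member rules and left-out libraries were tried as alternatives. No molecular identifiers were described, so intervals cover counting error only. P-values measure the spread between pooled samples.

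The members and lists were chosen with earlier results of these data known. Named members are the 10 with the highest CPM per codon and, for each comparison, those called with the largest changes (up to 10 in each direction for old vs young and 5 for the others, filled to 5 with the smallest p where fewer were called). The alike members, the short members, the members with an ITIM or ITAM and those of 553 and 394 residues were described outside this rule, after their values were seen.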

Additional observations from a re-analysis of the deposited data

How the results depend on the processing

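Counts of members called are listed for each setting, without the share called over all transcripts in that setting. Plain library totals moved the median log2 fold change of all transcripts to 0.93 old vs young and to 0.83 old vs adult. Old vs young, 15 members were called. The count was 26 with plain library totals in place of TMM (26 higher), 3 with the stricter pattern, which left 12 tested members, and 26 without the limit on protein length, which gave 128 tested members. It ranged from 0 to 14 when 1 library was left out. Adult vs young, the 1 call was lost (0) with plain library totals, upper-quartile factors, internal codons only, the replicate block and the stricter pattern, and the range without 1 library was 0 to 1. Old vs adult, 9 were called, compared with 18 by DESeq2, 29 with plain library totals, 19 without the filter on low counts, 0 with the replicate block, 0 with only the 2 ages in the fit, 1 with the stricter pattern and 15 without the length limit, and 0 to 12 without 1 library.

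The replicate numbers did not pair the samples, as the correlations of same-numbered deviations were -0.04, 0.13 and -0.14. The replicate block gave 13 calls old vs young, 0 adult vs young and 0 old vs adult.

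Some log2 fold changes between old and young changed sign. With plain library totals they were 0.49 for the member of 594 residues, 0.29 for the abundant one of 498, 0.83 for that of 651 and 0.55 for that of 382. For the member of 651 residues the value was 0.16 with the replicate block and -0.86 to 1.44 without 1 library. For the member of 234 residues, it was -0.0227 with internal codons, -0.0182 with the replicate block and -0.53 to 0.38 without 1 library. Old vs adult with plain library totals, the members of 379 and 295 residues had 0.14 and 0.26. Adult vs young, the member of 115 residues ranged from -2.51 to 4.45 without 1 library. The share of footprints on the members was 0.981%, 0.924% and 0.757% in young, adult and old liver without the 10 most abundant transcripts, and 0.00670%, 0.00560% and 0.00801% with the stricter pattern. The cause was not tested where the setting itself does not show it. In the named members, 431 log2 fold changes kept their direction and call, 101 lost a call, 5 gained one and 14 changed direction. With 2 pools per age and fewer than 10 footprints per library in many members, changes in the rarest members could not be measured.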

Other observations

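The pattern also occurred in 94 proteins outside the range of 100 to 700 residues. Of these, 67 were tested, and 10 were higher and 1 lower in old than in young liver, with a median log2 fold change of 0.52, beside 6.56% higher and 5.01% lower over all transcripts tested. Between adult and young, 0 were called by edgeR. An unadjusted p under 0.05 was reached by 9 of the 67 tested, beside 2316 of all 15557 transcripts tested. Between old and adult, 6 were higher and 0 lower, beside 2.37% and 1.45% over all transcripts tested.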
